A study of Caenorhabditis elegans with 12 samples.

Results

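The cyp-35 genes are a family of cytochrome P450 genes of Caenorhabditis elegans. The members are the rows of the deposited count table whose sequence name carries a symbol starting cyp-35 in the WBcel235 annotation, and they are 10 of its 27928 genes: cyp-35A1 to cyp-35A5, cyp-35B1 to cyp-35B3, cyp-35C1 and cyp-35D1. The genes were selected by name, but the family as a whole was chosen by the fold changes of its members between vitamin D and vehicle in these same libraries, several of which were negative. Its difference between the treatments is therefore given as a description. The calls of a fit over all genes are printed for its members to say which of them that fit lists. They are no independent evidence, and nothing is inferred from them.

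Each of the 12 libraries was made from a pool of whole worms of the wild-type strain N2: 6 pools were kept on vitamin D and 6 on its vehicle, dimethyl sulfoxide (DMSO). All were grown on NGM agar at 20 °C, and the treatment lasted 44 h. The series text and the sample protocol differ on the dose (100 µM or 100 mM), on the worms in a pool (50 or 40) and on when treatment began (at the L4 stage, or at day 1). All cells of the worm contributed RNA, so that fewer cells of a type and less RNA per cell cannot be told apart in any of the values that follow.

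Cytochromes P450 are haem enzymes that insert an oxygen atom into foreign compounds, drugs, fatty acids and sterols, using electrons passed on by NADPH-cytochrome P450 reductase and in some reactions by cytochrome b5. The cyp-35 genes are best known in the worm as intestinal genes that are induced by foreign compounds such as caffeine, polycyclic aromatics and drugs. The cyp-35A genes have also been tied to fat storage, cyp-35B1 is a known target of the FOXO factor DAF-16, and cyp-35D1 encodes an enzyme that hydroxylates the anthelmintic thiabendazole.

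Libraries held 30203731 to 35230983 counts on vehicle and 31383203 to 38720736 on vitamin D. Libraries of the same treatment differed in their germline content. Summed over the 12 listed sperm markers, of which msp-31 was at 0, the level was 260 and 214 CPM (counts per 1e+06 counts of the library, scaled by TMM factors) in vehicle libraries 2 and 3. It was 1168 to 1660 CPM in the other vehicle libraries and 496 to 1034 CPM in the vitamin D libraries. Vitamin D library 5 held 1521 CPM of the 10 oocyte and embryo markers, of which egg-1 and cpg-1 were at 0, against 458 to 508 CPM in the other vitamin D libraries. The listed genes that lie on chromosome III were at 0 in all 12 libraries and gave no measurement.

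All 10 genes lie on chromosome V (WBcel235), in 2 runs of neighbours and 4 places where 1 member stands alone. From the lower coordinate, cyp-35A5 (3936326 to 3938597), cyp-35B1 (3939032 to 3941237), cyp-35B2 (3942160 to 3944523) and cyp-35B3 (3945353 to 3947044) follow each other on the plus strand with gaps of 434, 922 and 829 bases. Further along the plus strand, cyp-35A3 (4022609 to 4024482) lies 75564 bases past cyp-35B3, and cyp-35A4 (4031619 to 4033446) another 7136 bases on. The pair cyp-35A1 (7359929 to 7361773) and cyp-35A2 (7362319 to 7364182) lies on the minus strand, 545 bases apart. The single genes cyp-35C1 (13896663 to 13898487, minus strand) and cyp-35D1 (16069238 to 16071318, plus strand) complete the family. The 5 cyp-35A genes share a coding length of 1482 bases in 7 exons, and cyp-35B1 to cyp-35B3 one of 1497 bases in 5 exons. The lengths for cyp-35C1 are 1485 bases in 7 exons and for cyp-35D1 1497 bases in 6 exons. The sources used here give neither the aligner nor the rule for reads that match several genes, so reads shared between such paralogs may have been split or dropped, and the level of each member is uncertain to that extent.

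Compared per kb of exon, the levels on vehicle spanned more than 2 orders of magnitude, and cyp-35A2 was the most abundant member at 197 ± 29.6 CPM per kb (SD, n = 6). It was followed by cyp-35C1 at 66.9 ± 3.55 and cyp-35A3 at 59.5 ± 5.56 CPM per kb, whose ranges over libraries overlapped. Below a gap came cyp-35A5 at 14.9 ± 1.17 and cyp-35A4 at 13.5 ± 1.40 CPM per kb, which also overlapped, and then cyp-35D1 at 4.55 ± 1.95 CPM per kb. The lowest 4 were cyp-35B3, cyp-35B2, cyp-35A1 and cyp-35B1, with means from 0.811 to 1.26 CPM per kb, and each of them overlapped with the next. On vitamin D the first 6 places were held by the same genes in the same order, but the ranges of cyp-35A2 (38.3 to 129 CPM per kb) and cyp-35C1 (46.9 to 117 CPM per kb) now overlapped. The lowest 4 stood in the reverse order, with cyp-35B1 at 0.629 ± 0.165 and cyp-35B3 at 0.0226 ± 0.0314 CPM per kb.

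**Figure D1:**
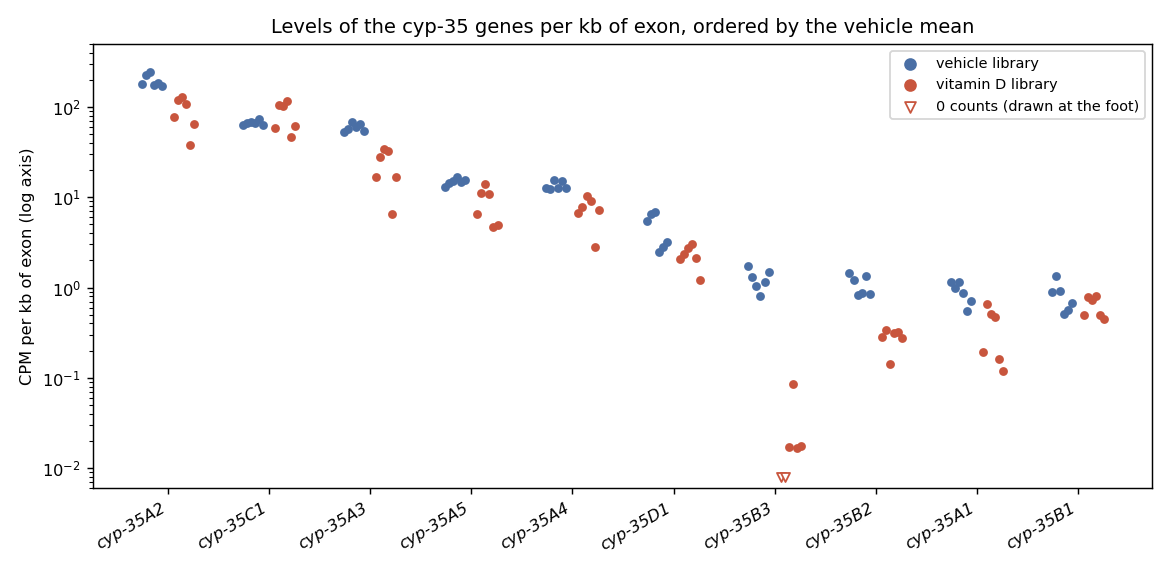
Level of each cyp-35 gene in CPM per kb of exon (log axis), with 1 point per library, 6 vehicle and 6 vitamin D. On vehicle cyp-35A2 stands above all other members, and cyp-35B3 has the widest distance between the treatments, with 0 counts in vitamin D libraries 1 and 2.

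In edgeR's quasi-likelihood fit over 13460 genes, 4 of the 10 members had an adjusted p under 0.05, which is the meaning of a call here: cyp-35B3, cyp-35B2, cyp-35A3 and cyp-35A2, all lower on vitamin D. The other 6 were not called. Of all tested genes 3.66% were called, 1.9% lower and 1.75% higher, and 0 members were among the higher ones. At an unadjusted p under 0.05 the counts were 0 higher and 8 lower, beside 8.46% higher and 8.23% lower of all tested genes. With DESeq2 they were also 0 and 8, beside 2.82% and 3.08% of the 19231 genes it was run on. All 10 members passed the filter on low counts. Of the 10 fitted log2 fold changes 9 were negative, with a median of -1.07, while over all tested genes 6797 of 13460 were negative, with a median of -0.0029. The 6 vitamin D libraries lay wholly below the 6 vehicle libraries for 5 members, the 4 called and cyp-35A4, and 1.92% of all tested genes had such a downward separation (1.98% an upward one, with 0 members). Since this contrast chose the family, nothing is read from these counts.

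Over all genes 236 were called higher and 256 lower, which became 507 and 223 when libraries were scaled by their totals without TMM factors. The family's split was 0 higher and 4 lower under both. It was 0 and 5 without vehicle libraries 2 and 3, where cyp-35A4 joined the called genes. In that fit 2036 of 13723 genes were called higher and 1888 lower. The split was 0 and 2 without any 1 of vehicle libraries 1, 2 and 4 and vitamin D libraries 1 and 6. There cyp-35B2 and cyp-35B3 were the called genes, beside 260 to 358 genes called over the whole table.

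The B genes differed most from each other. The gene cyp-35B3 was nearly silent on vitamin D: its counts were 90, 58, 51, 39, 55 and 69 in vehicle libraries 1 to 6 and 0, 0, 1, 4, 1 and 1 in vitamin D libraries 1 to 6. No vitamin D library reached even 5 counts, and the groups were far apart. Scaled, the vehicle mean was 1.89 ± 0.501 CPM and the vitamin D mean 0.0339 ± 0.0471 CPM (SD, n = 6 and 6). The sums of 362 and 7 counts gave a vehicle level 60.2 times that on vitamin D, with a 95% exact interval of 28.9 to 151 that covers counting error only. Vitamin D library 4 held 4 of the 7 counts, and without it the ratio was 120 (interval 40.9 to 587). For the libraries with 0 counts, a floor of 3 counts allows up to 0.0819 CPM in vitamin D library 1 and 0.0818 CPM in vitamin D library 2.

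Its neighbour cyp-35B2 had 81, 58, 44, 45, 68 and 43 counts in vehicle libraries 1 to 6 and 17, 20, 9, 16, 21 and 17 in vitamin D libraries 1 to 6. The groups did not overlap, but no library came near 0. Vehicle pools averaged 1.77 ± 0.450 CPM and vitamin D pools 0.453 ± 0.115 CPM, with a log2 fold change of -1.96 (SE 0.24). Per library the counts of cyp-35B3 were 0.809 to 1.605 times those of cyp-35B2 on vehicle, and 0 to 0.25 times on vitamin D.

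For cyp-35B1, the DAF-16 target in the middle of the same run, counts were 50, 65, 49, 27, 29 and 34 on vehicle and 30, 48, 47, 42, 33 and 28 on vitamin D. The groups overlapped, with 3 of 6 vitamin D libraries below the lowest vehicle library. Vehicle pools averaged 1.34 ± 0.504 CPM and vitamin D pools 1.04 ± 0.272 CPM, and the log2 fold change of -0.37 (SE 0.26) was not called in any of the 21 alternative fits. In the order of their position, the 3 neighbouring B genes had fitted vitamin D levels of 77.5%, 25.7% and 1.87% of vehicle.

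Among the A genes, cyp-35A2 dominated, and it is a member widely used as a readout of exposure to foreign compounds. Its level was 283, 357, 384, 278, 297 and 273 CPM in vehicle libraries 1 to 6 and 125, 190, 205, 173, 60.9 and 104 CPM in vitamin D libraries 1 to 6. Every vitamin D library was below every vehicle library, with library 5 lowest. The log2 fold change was -1.13 (SE 0.25), and the call was lost in 7 of 21 alternatives. The adjacent cyp-35A1 was over 100 times scarcer in counts, with means of 1.40 ± 0.371 CPM (vehicle) and 0.544 ± 0.343 CPM (vitamin D). Of its 6 vitamin D libraries 5 lay below the lowest vehicle library, and library 2 at 1.01 CPM did not, with a log2 fold change of -1.36 (SE 0.40) that was not called.

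For cyp-35A3 the levels were 84.8, 90.3, 107, 95.4, 102 and 86.8 CPM on vehicle and 26.4, 44.8, 55.1, 52.0, 10.4 and 26.6 CPM on vitamin D. The groups were separate, and vitamin D libraries 2, 3 and 4 were nearer to vehicle than libraries 1, 5 and 6. Its log2 fold change was -1.39 (SE 0.32), and the call was lost in 10 of 21 alternatives. Close by, cyp-35A4 ranged from 19.3 to 24.01 CPM in vehicle pools (median 19.6) and from 4.31 to 15.97 CPM in vitamin D pools (median 11.6). These ranges did not overlap either, yet the log2 fold change of -0.88 (SE 0.24) was called only in 4 of 21 alternatives. The lead gene of the B run, cyp-35A5, ranged from 22.7 to 28.7 CPM in vehicle pools and from 8.08 to 24.4 CPM in vitamin D pools, with vitamin D library 3 inside the vehicle range. Its log2 fold change was -0.77 (SE 0.26), not called.

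The gene cyp-35C1 had the one positive fold change of the family. Its levels were 97.1, 102, 105, 102, 112 and 98.1 CPM in vehicle libraries 1 to 6 and 90.2, 160, 156, 180, 72.0 and 95.02 CPM in vitamin D libraries 1 to 6. The values of vitamin D libraries 2, 3 and 4 lay above the whole vehicle range and those of libraries 1, 5 and 6 below it, and the log2 fold change was 0.29 (SE 0.20), not called in any of the 21 alternatives. In counts, cyp-35C1 was 0.273 to 0.378 times cyp-35A2 on vehicle and 0.724 to 1.18 times on vitamin D.

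For cyp-35D1, the thiabendazole hydroxylase, vehicle libraries 1, 2 and 3 had 8.59, 10.3 and 10.8 CPM, and vehicle libraries 4, 5 and 6 had 3.90, 4.41 and 5.095 CPM. Vitamin D libraries had 3.25, 3.73, 4.37, 4.81, 3.35 and 1.90 CPM. Vehicle therefore split into a high and a low set. Vitamin D library values overlapped with the low set, with 4 of 6 below the lowest vehicle library. The log2 fold change was -1.01 (SE 0.30), not called, and it passed in 2 of 21 alternatives.

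**Figure D2:**
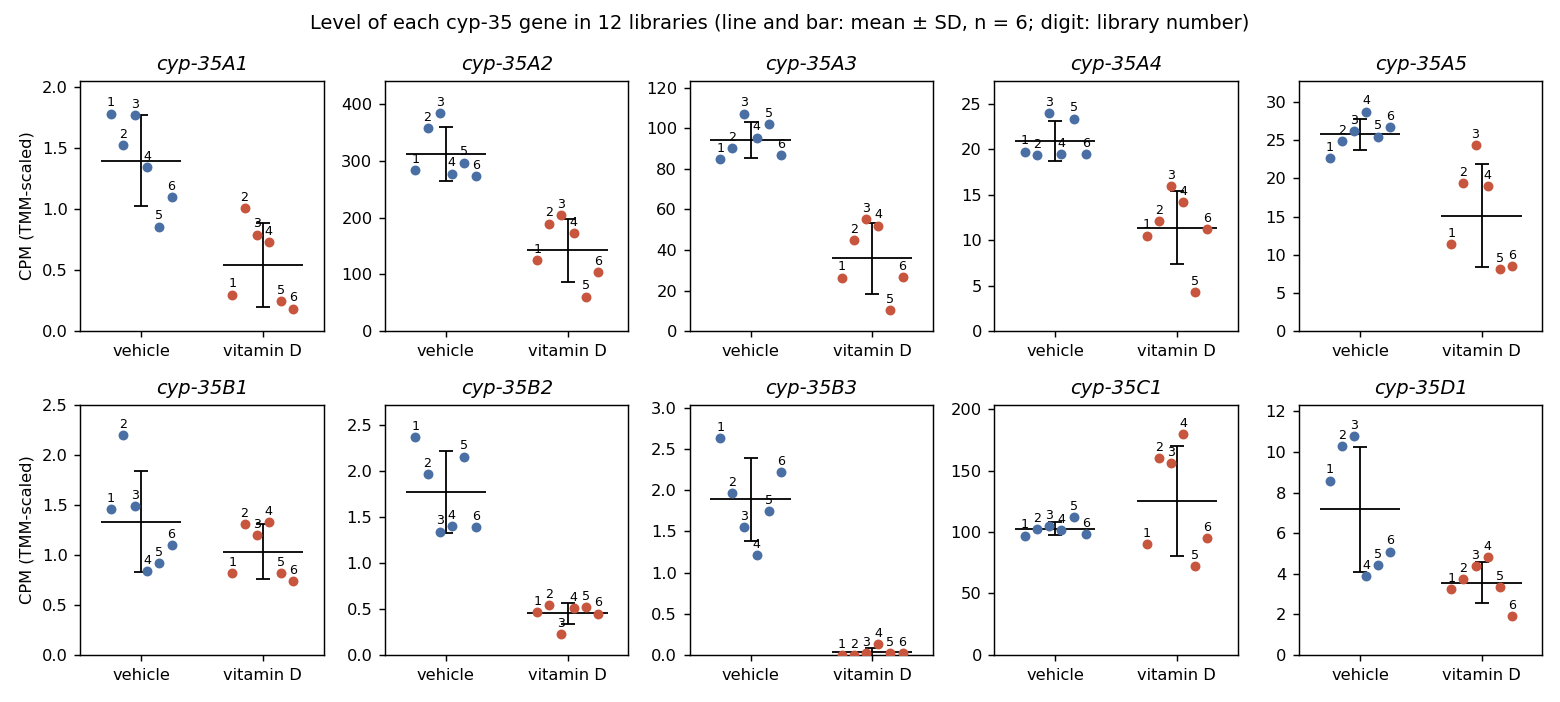
CPM (TMM-scaled, linear axes from 0) of each cyp-35 gene in the 6 vehicle and 6 vitamin D libraries, numbered by library, with the mean and SD of each group. The groups do not overlap for cyp-35A2, cyp-35A3, cyp-35A4, cyp-35B2 and cyp-35B3, and cyp-35C1 spreads to both sides of its vehicle range on vitamin D.

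Summed over the 10 genes, the level was 569 ± 58.4 CPM for vehicle and 336 ± 127 CPM for vitamin D, with ranges of 515 to 663 and 161 to 463 CPM. Without cyp-35A2 the sums were 241 to 279 CPM (vehicle) and 99.8 to 272 CPM (vitamin D), which overlapped. The make-up of the sum differed more evenly than its size. The share of cyp-35A2 was 54.6 ± 2.84% on vehicle and 42.2 ± 3.33% on vitamin D, that of cyp-35A3 16.6 ± 1.21% and 10.2 ± 1.96%, and that of cyp-35C1 18.1 ± 1.55% and 37.97 ± 4.26%. In each of these 3 shares all vitamin D libraries lay to one side of all vehicle libraries. The shares of cyp-35A4 (3.68 ± 0.305% and 3.42 ± 0.695%) and cyp-35A5 (4.56 ± 0.597% and 4.46 ± 0.647%) overlapped. Shares of one sum are tied to each other, so a lower share of cyp-35A2 raises the summed share of the others, though not each of them.

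Of 64 listed P450 genes of other families 51 were tested, of which 12 rose, 0 fell and 39 did not pass, with a median log2 fold change of 0.34, against 1.75% of all tested genes called higher. In edgeR 24 were higher and 2 lower at an unadjusted p under 0.05 (8.46% and 8.23% of all tested genes). DESeq2, run on 58 of them, called 22 higher and 0 lower (2.82% and 3.08% of the 19231 genes it was run on). The direction of these genes was known when the family was chosen. The smallest p-values belonged to cyp-33E2, which rose from 18.4 ± 1.54 to 49.7 ± 7.59 CPM (edgeR adjusted p = 1.22e-05), and to cyp-13A5, which rose from 2.25 ± 0.230 to 12.4 ± 6.96 CPM (edgeR adjusted p = 0.000922). Next came cyp-25A6 with a log2 fold change of 1.83 (SE 0.23), cyp-14A4 with 2.52 (SE 0.35) and cyp-13A4 with 1.48 (SE 0.21). Summed over the 64 genes, other P450 transcripts had 506 to 621 CPM (vehicle) and 684 to 719 CPM (vitamin D). Without vehicle libraries 2 and 3 the count became 29 higher and 4 lower of 52. In that fit calls rose over the whole table as well, to 2036 higher and 1888 lower of 13723 genes.

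**Figure D3:**
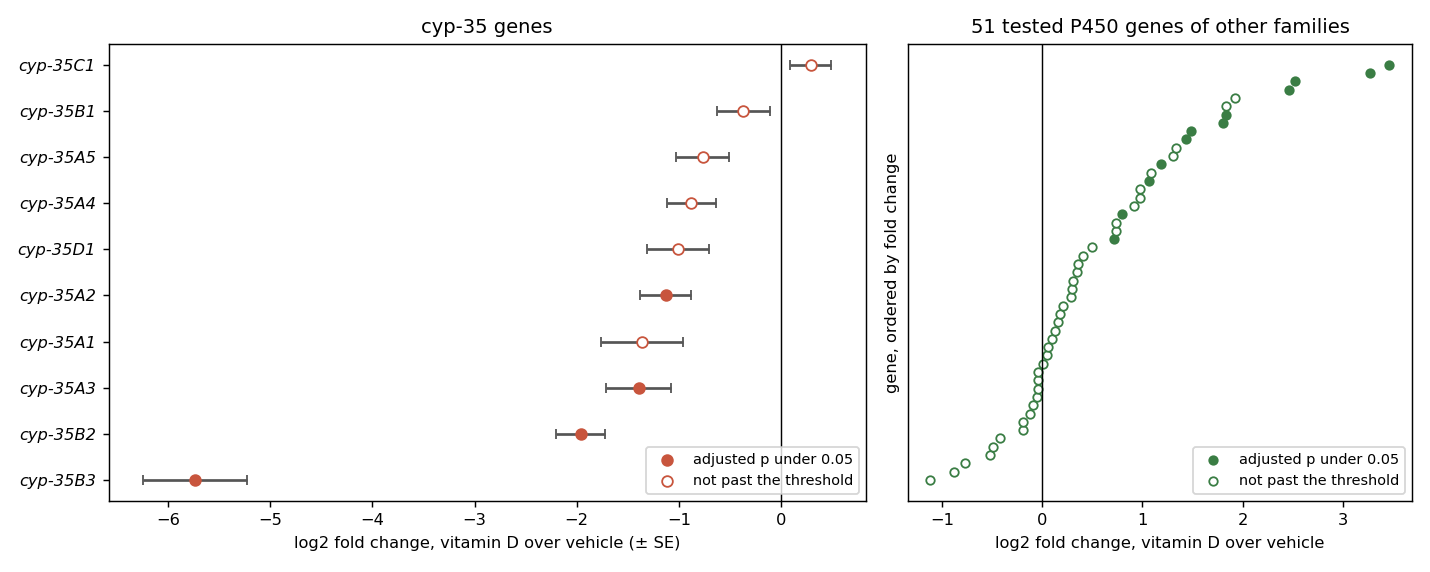
Log2 fold change of vitamin D over vehicle for the 10 cyp-35 genes (left, with SE) and for 51 tested P450 genes of other families (right, ordered by fold change); filled points had an edgeR adjusted p under 0.05. The 4 filled cyp-35 genes are all negative and the 12 filled genes of other families all positive.

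Within the vitamin D group most members moved together from library to library. For 8 of the 10 genes, all but cyp-35B2 and cyp-35B3, the 3 highest vitamin D libraries were 2, 3 and 4, an order that 16.2% of all tested genes had. This pattern was picked out after it was seen. Libraries 2, 3 and 4 were also the most alike of the vitamin D libraries over the whole table, with a chi-square per degree of freedom of 8.4 to 13.6, against 21.1 to 152 for the other vitamin D pairs. Vitamin D library 5, the one with the high oocyte and embryo markers, was the lowest for 5 members, cyp-35A2 to cyp-35A5 and cyp-35C1, and 28.6% of all tested genes were lowest there. Its deviation from the group mean on the log2 scale was -1.58 for cyp-35A3 and -1.11 for cyp-35A2.

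The 8 listed hypodermis markers, of which bli-1 was at 0, followed the same order, with 7189, 6532 and 7091 CPM in vitamin D libraries 2, 3 and 4 and 5678, 4444 and 4697 CPM in libraries 1, 5 and 6. The body wall muscle markers did so too (11813, 12147 and 11981 against 11492, 10900 and 11389 CPM), as did the neuron markers (451, 442 and 450 against 424, 391 and 434 CPM). The pharynx markers did not, with 596, 607 and 750 against 615, 570 and 599 CPM. The 11 intestinal markers found in the table, of which act-5 was at 0, did not follow it either, with 6116 to 6729 CPM in libraries 2, 3 and 4 and 6109 to 7389 CPM in libraries 1, 5 and 6. The part of the markers in these results was not tested. For the counts of markers that follow, the shares over all tested genes in edgeR were 1.75% called higher and 1.9% lower. At an unadjusted p under 0.05 they were 8.46% and 8.23%, and by DESeq2 2.82% and 3.08% of the 19231 genes it was run on. With so few genes per list, nothing is read from a lack of calls. Between the treatments, 0 of 10 tested intestinal markers passed in edgeR in either direction (3 higher and 2 lower at an unadjusted p under 0.05, and 2 and 0 by DESeq2), with summed levels of 5191 to 8280 CPM (vehicle) and 6109 to 7389 CPM (vitamin D). Vehicle libraries 2 and 3 held 8258 and 8280 CPM of the intestinal markers, against 5191 to 6057 CPM in the other vehicle libraries. Of the 11 tested sperm markers all had a negative log2 fold change, with a median of -0.70, and 0 passed in edgeR, at an unadjusted p under 0.05 or in DESeq2. The same 3 counts were 0 for the 7 tested hypodermis markers and the 8 tested oocyte and embryo markers, and for the 5 tested pharynx markers. Of the 8 tested body wall muscle markers 2 rose and 0 fell in edgeR (4 higher and 2 lower at an unadjusted p under 0.05, and 3 and 1 by DESeq2). They were the myosin gene unc-54 (log2 fold change 0.24, edgeR adjusted p = 0.0326) and unc-89, of a giant muscle protein (0.20, edgeR adjusted p = 0.0291). Their summed level was 10314 to 11962 CPM (vehicle) and 10900 to 12147 CPM (vitamin D). Of the 6 tested neuron markers, with unc-25 at 0, 0 passed in edgeR or DESeq2, and 2 were higher and 0 lower at an unadjusted p under 0.05.

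On vehicle the spread was smaller for the abundant genes. The highest vehicle library was 1.16 times the lowest for cyp-35C1, 1.24 times for cyp-35A4 and 1.40 times for cyp-35A2, while on vitamin D the ratios were 2.50, 3.70 and 3.36. For cyp-35A1, cyp-35B1 and cyp-35D1 the 3 highest vehicle libraries were 1, 2 and 3, as they were for 22.5% of all tested genes. On vehicle cyp-35D1 ran in the inverse order of the summed sperm markers, which were at 1168, 260, 214, 1660, 1426 and 1392 CPM in libraries 1 to 6. With a sperm marker score as a term in the fit, its log2 fold change was -1.02 (SE 0.23) and was called. Calls rose over the whole table in that fit, to 1584 of 13460 genes against 492 without the score. Among the cyp-35 genes 7 were called against 4. The part of the sperm markers in the vehicle values of cyp-35D1 was not tested.

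**Figure D4:**
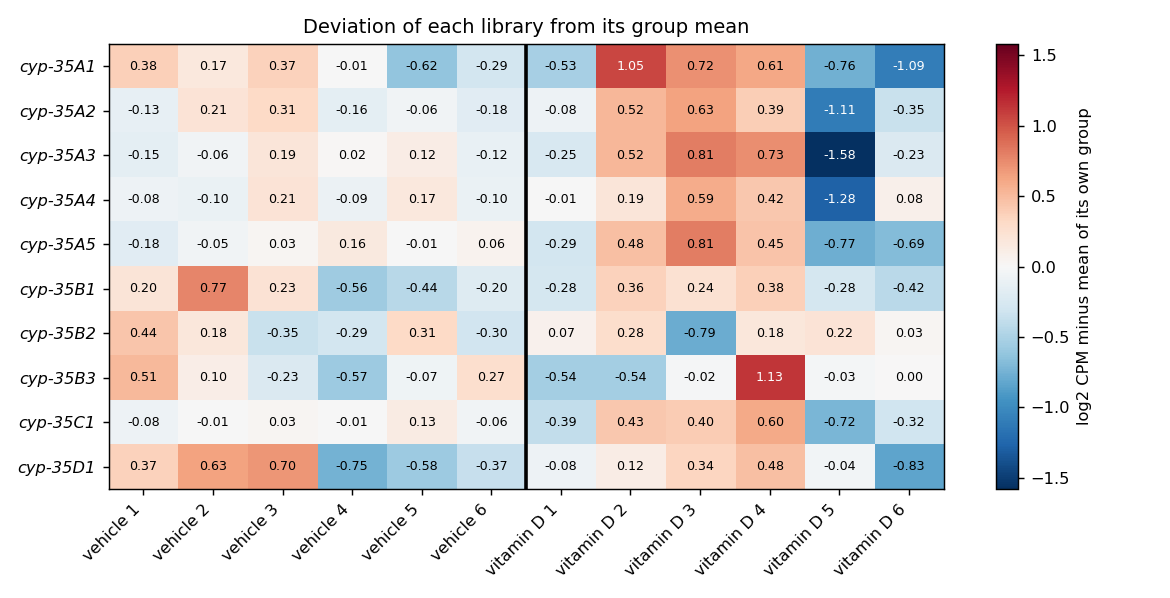
Log2 CPM of each cyp-35 gene in each library minus the mean of its own treatment group, with red above and blue below that mean. Vitamin D libraries 2, 3 and 4 are above the mean for 8 of the 10 genes, while cyp-35B2 is lowest in library 3 and cyp-35B3 highest in library 4.

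Likeness between genes was described by Pearson's r of these within-group deviations over the 12 libraries, which takes out the difference between the treatments but keeps what libraries share in stage and make-up. It is given with no test. The most alike members were the neighbours cyp-35A3 and cyp-35A4 (r = 0.96, Spearman's rho = 0.78), then cyp-35A2 and cyp-35A3 (r = 0.95, rho = 0.87) and, from different parts of the chromosome, cyp-35A3 and cyp-35C1 (r = 0.93, rho = 0.97). The pair cyp-35B1 and cyp-35D1 had r = 0.89. With the 5 cyp-35A genes, cyp-35B2 had r of -0.44 to -0.17 (rho -0.31 to -0.03) and cyp-35B3 r of 0.06 to 0.16 (rho -0.07 to 0.11). The largest deviation of cyp-35B2, -0.79 in vitamin D library 3, rests on 9 counts. On vehicle alone cyp-35A2 and cyp-35A3 had r = 0.55, and on vitamin D alone r = 0.98.

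Among 12004 other genes with a mean of at least 1 CPM, those closest to the abundant members did so with r of 0.96 to 0.99: W05F2.4 and wdr-62 for cyp-35C1, atic-1 and F52G2.3 for cyp-35A2, F11A5.5 and gmap-2 for cyp-35A5, and Y54G2A.10 and syd-2 for cyp-35A3. For cyp-35A4 they were lgc-43 and ZK1307.1 (r = 0.93 and 0.92, with a lower rho of 0.59 and 0.68). The scarcer genes had dhs-2 and gmap-1 (cyp-35A1, both r = 0.95), F13D12.8 and R07C12.2 (cyp-35B1, both r = 0.96) and F52E10.4 and flp-16 (cyp-35D1, r = 0.94 and 0.93). The lowest values were those of glc-1 and cut-3 for cyp-35B2 (r = 0.89 and 0.85) and of cki-1 and F45D11.1 for cyp-35B3 (r = 0.91 and 0.86). The vitamin D deviations of cyp-35B3 rest on 0 to 4 counts per library, so its likeness to other genes is limited by depth. All the genes named here were picked as the highest of 12004, so their r is high in part by selection. Of these 20 genes 2 passed between the treatments, beside 3.66% of all tested genes, and nothing is read from so few. The gene glc-1, closest to cyp-35B2, was higher (log2 fold change 0.37, edgeR adjusted p = 0.031). The gene atic-1 was lower, just under the threshold (log2 fold change -0.56, edgeR adjusted p = 0.0499).

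The genes next to the family on the chromosome were not called. Only 3.66% of all tested genes were called, so nothing is read from the lack of calls among so few neighbours. The nearest tested non-members beside each member or run are 11 genes: srx-68, dach-1, srw-89, K09D9.1, C49G7.7, C03G6.6, exc-13, sptl-3, oac-3, F14H3.6 and nhr-176, with edgeR adjusted p-values from 0.263 to 1. Beside the B run, dach-1 lies 2978 bases past cyp-35B3 and averaged 7.42 ± 2.77 CPM (vehicle) and 7.42 ± 3.39 CPM (vitamin D). K09D9.1, which lies between cyp-35A3 and cyp-35A4, had a log2 fold change of -0.13 (SE 0.44), and exc-13, 1068 bases from cyp-35A2, one of 0.07 (SE 0.11). On the other side of that pair, C03G6.6 lies 952 bases from cyp-35A1 and had one of -0.72 (SE 0.34), and srw-89, 3582 bases from cyp-35A3, one of -0.58 (SE 0.59). The serine palmitoyltransferase gene sptl-3, 247 bases from cyp-35C1, averaged 131 ± 10.8 and 152 ± 22.4 CPM (log2 fold change 0.22, SE 0.09). The gene nhr-176 begins 6 bases past the end of cyp-35D1 on the same strand, so reads near this border may be assigned to either.

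Of the electron partners of P450 enzymes, the cytochrome b5 gene cytb-5.2 fell from 173 ± 8.91 to 143 ± 4.47 CPM, that is, with a log2 fold change of -0.27 and an edgeR adjusted p of 0.00544, and with all 6 vitamin D libraries below all vehicle libraries. Over all tested genes 1.9% were called lower and 1.92% had such a downward separation. The call of cytb-5.2 was lost with the replicate number as a term in the fit. The second cytochrome b5 gene, cytb-5.1, had 177 ± 62.6 and 152 ± 20.1 CPM and did not pass (edgeR adjusted p = 0.637). The P450 reductase gene emb-8 was listed at 0 in all libraries and gave no measurement.

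Of 13 listed regulators 10 were tested, and 0 passed in either direction, with a median log2 fold change of 0.01 and edgeR adjusted p-values from 0.0834 to 0.996. At an unadjusted p under 0.05, as with DESeq2, 1 was higher and 0 lower. Over all tested genes 3.66% were called, and 8.46% were higher and 8.23% lower at an unadjusted p under 0.05. By DESeq2 2.82% were higher and 3.08% lower of the 19231 genes it was run on. Nothing is therefore read from the lack of calls among 10 regulators. The gene for NHR-176, the nuclear receptor through which thiabendazole induces cyp-35D1, averaged 8.07 ± 1.37 CPM (vehicle) and 7.77 ± 0.452 CPM (vitamin D). The gene with the smallest p of the list was skn-1, which encodes a factor of detoxification genes, whose log2 fold change was 0.23 (edgeR adjusted p = 0.0834). The receptor gene daf-12 had 0.31 (SE 0.16), the aryl hydrocarbon receptor gene ahr-1 had 0.23 (SE 0.22) and the gene of its partner AHA-1 had 0.00 (SE 0.12). The FOXO gene daf-16 had 0.10 (SE 0.06), and elt-2, of the intestinal GATA factor, -0.03 (SE 0.08). The nuclear receptor genes nhr-8, nhr-49 and nhr-86 had -0.01 (SE 0.08), 0.015 (SE 0.08) and -0.10 (SE 0.07). The genes mdt-15, which encodes a Mediator subunit needed for induction of cyp-35 genes by foreign compounds, sbp-1 and cbp-1 were listed at 0.

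Of 16 listed genes taken as DAF-16 targets 11 were tested, of which 1 rose, 3 fell and 7 did not pass. Their median log2 fold change was -0.63. Of all tested genes 1.75% were called higher and 1.9% lower. At an unadjusted p under 0.05, 1 of the list was higher and 4 lower (8.46% and 8.23% of all tested genes). By DESeq2 the counts were also 1 and 4 (2.82% and 3.08% of the 19231 genes it was run on). A lysozyme gene, lys-7, fell by 1.15 (SE 0.26) on the log2 scale, with an edgeR adjusted p of 0.0299; ttr-44 fell by 0.86 (SE 0.20) and the nicotinamide nucleotide transhydrogenase gene nnt-1 by 0.65 (SE 0.15). The gene that rose was itself a P450 gene, cyp-34A9, with 13.6 ± 1.29 and 23.7 ± 7.60 CPM. Of 19 tested fat metabolism genes 2 rose, 0 fell and 17 did not pass in edgeR, with a median of 0.04 (2 higher and 1 lower at an unadjusted p under 0.05, and 2 and 0 by DESeq2). The pair that rose was lbp-8, a lysosomal fatty acid carrier, from 1.87 ± 1.09 to 15.4 ± 1.96 CPM (edgeR adjusted p = 0.000222), and fil-1, a fasting-induced lipase, from 2.63 ± 0.459 to 5.54 ± 0.749 CPM (edgeR adjusted p = 0.00158).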

How the data were processed

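Not given in the sources used here are the strand, the aligner, the counter and the genome build with its annotation. Per the submitters' processing notes, edgeR 3.12.1 was used. The authors deposited raw counts per gene and a table of CPM. Each deposited CPM value equalled the count per library total to within 2.91e-11, so that table was used for this check only. Sequence names were matched to Ensembl's WBcel235 annotation: 27187 of 27928 matched 1 gene. Counts were filtered with filterByExpr (minimum count 10, minimum total 15), which kept 13460 genes, scaled by TMM and tested with edgeR 4.0.16 in R 4.3.3 (glmQLFit, robust; treatment as the only term; two-sided; Benjamini-Hochberg threshold 0.05). Standard errors were derived from the F statistic. DESeq2 1.42.0 was an alternative. The code was tested on simulated data. The members, lists and tests were chosen with earlier results of these data known. Genes were named by fixed rules: all members, all partners and regulators, 5 other P450 genes per direction by p, up to 3 genes per direction of the other lists, the 2 genes most like each member, and the nearest tested neighbours. No sequences were analysed here.

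The series text calls each pool an independent biological replicate, and the p-values treat the pools as such. No 2 libraries of a group agreed within sampling noise (lowest chi-square per degree of freedom 7.4, for vehicle libraries 5 and 6). Some pools were far more alike than others. Vehicle libraries 2 and 3 had 8.9, against 173.6 to 331.6 between either of them and the other vehicle libraries. Vitamin D libraries 2, 3 and 4 had 8.4 to 13.6, against 21.1 to 152.1 for the other vitamin D pairs. Whether the alike pools were independent was not tested. If not, the count of pools overstates the replication.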

Additional observations from a re-analysis of the deposited data

Results flagged for a closer look

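Of 22 groups of 6 libraries examined (10 genes and their sum, in each treatment), 2 held a library whose gap to the next was larger, as a share of the group's range, than Dixon's 95% critical value, and chance alone flags about 1 in 20 groups. In vitamin D library 3, cyp-35B2 had 0.23 CPM, the lowest of its group, with the next library at 0.449 CPM. In vitamin D library 4, cyp-35B3 had 0.127 CPM, the highest of its group, with the next at 0.0264 CPM. The first value rests on 9 counts and the second on 4.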

How the results depend on the processing

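Against 4 of the 10 cyp-35 genes, 12 other P450 genes, 492 genes in all and 7 genes of the partner, regulator, DAF-16 target and fat metabolism lists past the threshold, DESeq2 gave 8, 22 and 1136, and a sperm marker score as a term gave 7, 20, 1584 and 14. With the trend on exon length removed, 252 genes in all (188 higher, 64 lower) and 3 of the lists passed. Without vehicle libraries 2 and 3 the counts were 33 other P450 genes, 3924 in all and 17 of the lists. Leaving out 1 library at a time gave 2 to 5 cyp-35 genes, 9 to 14 other P450 genes, 260 to 625 genes in all and 3 to 6 of the lists. With the replicate number as a block, 2 cyp-35 genes, 6 other P450 genes, 136 genes in all and 2 of the lists passed; equal numbers did not pair the samples (correlations of -0.504 to 0.504 between same-numbered libraries, and 2 of 6 vehicle libraries closest to their own number), so they share only a number. The cause of these differences was not tested. Through up to 21 alternatives every member kept its sign, and cyp-35B2 and cyp-35B3 kept their call in all in which they were tested, from -2.04 to -1.83 and from -6.62 to -5.50 on the log2 scale. The gene cyp-35A2 ranged from -1.26 to -0.97 and cyp-35A3 from -1.56 to -1.20. Group means with total counts in place of TMM differed from those given by less than 1 SD for all 10 genes. By Spearman's rho, the likeness of lgc-43 to cyp-35A4 was 0.587 and that of glc-1 to cyp-35B2 0.713. The planned comparisons of transcript and promoter sequences were not run. At 28 or fewer counts in a vitamin D library, cyp-35B2, cyp-35B3 and the lowest values of cyp-35A1 and cyp-35B1 are limited by depth.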

Other observations

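RefSeq's table for the WBcel235 assembly names a further family member, the pseudogene cyp-35D2 (F14H3.13; V, 16063551 to 16064108), which lies before cyp-35D1 and carries no cyp-35 symbol in the Ensembl annotation used for the rule. It had 1, 2, 6, 1, 1 and 1 counts in vehicle libraries 1 to 6 and 1, 2, 0, 0, 4 and 0 in vitamin D libraries 1 to 6, which is too few for a comparison.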
